A study of Mus musculus with 4 samples.

Results

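The genes described here encode oxidative phosphorylation subunits and tricarboxylic acid (TCA) cycle enzymes. They were taken from a fixed list of 47 symbols, not read off measured values, although it was chosen with earlier results of these data known. Of these, 45 had a probe set of their own on the array, out of 18194 genes with one. Cox7b was not analysed here, and Ndufs6 was represented only by a probe set annotated jointly to it and its copy Ndufs6b. All 45 passed the detection filter, among 9595 genes tested, and 44 of them lay above the detection level on all 4 arrays. The list holds 18 measured complex I subunits (6 catalytic, 12 accessory), the 4 subunits of complex II, 7 genes of complex III and cytochrome c, 6 of complex IV and 10 of the TCA cycle and malate shuttle. It holds no subunit of complex V.

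Germinal centre (GC) B cells, the dividing cells in which antibody genes mutate, and naive B cells, which have not met antigen, were compared on 4 Affymetrix arrays of biotin-labelled cRNA. GC cells were sorted as B220+PNA+Fas+ and naive cells as B220+PNA-Fas-, all from adult C57BL6/J wild type mice kept free of specific pathogens. Each cell type was taken from the gut's Peyer's patches (PP), where GC form in response to the intestinal flora, of untreated mice, and from peripheral lymph nodes (pLN) of mice immunised with TNP-KLH, a hapten coupled to a carrier protein, in incomplete Freund's adjuvant. Every one of the 4 groups (GC PP, GC pLN, naive PP, naive pLN) was 1 array of RNA pooled from 3 to 5 mice, so tissue and immunisation cannot be told apart, and precision is limited by there being 1 array a group.

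In oxidative phosphorylation, complex I takes electrons from NADH and complex II from succinate, and both pass them through ubiquinone to complex III. Cytochrome c carries them on to complex IV, which reduces oxygen. Complexes I, III and IV pump protons, and complex V makes ATP with the gradient. The TCA cycle oxidises acetyl-CoA in the mitochondrial matrix and supplies the NADH and succinate. Naive B cells are small resting cells, while GC B cells divide fast and have been reported to use mitochondrial respiration.

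Promoter sequence was examined because some of these genes moved in opposite directions between the cell types. RefSeq windows (assembly GRCm38.p6) reach from 250 bases before a gene's start to 50 bases after it. Of the 45 measured genes, 34 had 1 or more, 40 windows in all. They were searched on both strands for motifs of 4 factors known to bind promoters of respiratory genes. The NRF1 motif GCGCANGCG was present in 25% of the members' windows and in 6.25% of all 32851 windows. The ETS motif CCGGAAG, which GABPA binds, was present in 20% and 8.86%, the YY1 motif AAGATGGCG in 7.5% and 1.4%, and the ERR motif AAGGTCA in 5% and 4.72%. NRF1 was present in 0 of 8 windows of members called higher, 4 of 17 called lower and 6 of 15 not called. In that order, ETS had 2, 3 and 3, YY1 1, 1 and 1, and ERR 0, 1 and 1. Differences between these groups were not tested. Ogdh contributed 6 windows and Ndufa5 2, partly overlapping and all of genes called lower, and a match is a description of the letters, not a binding site. The 4 windows of genes called lower with NRF1 were all of Ndufa5 and Ogdh, whose overlapping windows held the same site. The 4 of 17 and the 25% for NRF1 thus count each of these sites more than once. The windows below are shown, in the 5′ to 3′ direction of the gene with motif matches in capitals (on either strand), for 2 genes that were lower in GC cells (Ndufs7, Ndufs3), 2 that were higher (Ndufa9, Cox8a) and 1 that was not called but holds 3 of the motifs (Sdhd). Only windows with a match are shown. Those of other called genes, such as Cox5a, Ndufa4 and Suclg1 (higher) or Cox5b and Ndufv2 (lower), hold no match. Ndufs7, chr10:80249199-80249498, plus strand, has a YY1 match. Ndufs3, chr2:90904672-90904971, minus strand, has 2 ETS matches. Ndufa9, chr6:126849095-126849394, minus strand, has a YY1 match. Cox8a, chr19:7217567-7217866, minus strand, has 2 ETS matches. Sdhd, chr9:50603800-50604099, minus strand, has 1 match each of NRF1, ETS and ERR.
Ndufs7: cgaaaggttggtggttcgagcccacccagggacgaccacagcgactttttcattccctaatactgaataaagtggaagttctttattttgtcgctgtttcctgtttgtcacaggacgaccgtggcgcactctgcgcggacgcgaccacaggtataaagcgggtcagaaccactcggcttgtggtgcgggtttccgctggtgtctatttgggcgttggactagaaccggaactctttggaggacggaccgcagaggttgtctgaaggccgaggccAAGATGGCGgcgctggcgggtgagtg
Ndufs3: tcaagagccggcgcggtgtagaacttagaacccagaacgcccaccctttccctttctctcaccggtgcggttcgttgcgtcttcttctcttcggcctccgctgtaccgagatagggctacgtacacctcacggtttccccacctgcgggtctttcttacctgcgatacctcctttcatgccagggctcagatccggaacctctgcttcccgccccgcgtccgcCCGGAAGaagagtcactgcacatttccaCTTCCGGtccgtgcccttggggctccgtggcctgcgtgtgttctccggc
Ndufa9: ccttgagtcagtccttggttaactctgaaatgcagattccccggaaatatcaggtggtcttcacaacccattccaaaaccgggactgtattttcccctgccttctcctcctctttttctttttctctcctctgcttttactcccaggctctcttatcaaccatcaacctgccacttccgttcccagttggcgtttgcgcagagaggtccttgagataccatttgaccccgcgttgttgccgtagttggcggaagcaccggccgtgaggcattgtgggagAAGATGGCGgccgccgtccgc
Cox8a: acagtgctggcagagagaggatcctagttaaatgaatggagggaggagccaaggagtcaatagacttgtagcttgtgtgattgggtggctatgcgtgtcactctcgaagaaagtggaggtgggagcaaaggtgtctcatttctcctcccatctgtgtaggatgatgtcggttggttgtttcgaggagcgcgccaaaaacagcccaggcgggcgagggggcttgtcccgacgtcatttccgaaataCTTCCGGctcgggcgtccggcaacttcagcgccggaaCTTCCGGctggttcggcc
Sdhd: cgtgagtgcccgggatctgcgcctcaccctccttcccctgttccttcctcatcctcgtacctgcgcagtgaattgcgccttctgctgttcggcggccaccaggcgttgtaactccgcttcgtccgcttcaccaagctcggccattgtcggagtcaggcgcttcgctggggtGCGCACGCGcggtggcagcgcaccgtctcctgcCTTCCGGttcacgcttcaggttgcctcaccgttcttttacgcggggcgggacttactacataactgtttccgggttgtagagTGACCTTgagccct

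The sorted cells carried the markers of their labels, and RNA quality differed with cell type. Of 6 measured GC markers, 5 were higher in GC cells (list median log2 fold 5.99), Bcl6 was not called, and all 4 measured naive markers were lower. Summed signals of marker lists for other cells were 1292 (PP) and 776 (pLN) in GC cells against 780 (PP) and 1550 (pLN) in naive cells for T cells. They were 4446 and 3297 against 1194 and 1157 for macrophages, mostly Apoe in GC cells, and 1654 and 485 against 4197 and 1263 for gut epithelium (same order of arrays). Dendritic cell markers summed to 1872 and 1319 in GC cells, against 238 and 628 in naive cells, and plasma cell markers to 22284 and 16073, against 7864 and 9306. Granulocyte markers summed to 31.8 and 766 in GC cells, against 110 and 85.5 in naive cells, stroma markers to 452 and 136, against 1096 and 331, and erythroid markers to 548 and 384, against 116 and 365. No marker was listed at 0. The 3' over 5' signal ratio of the Gapdh control probe sets, a sign of RNA degradation or short amplification products, was 1.67 (PP) and 1.48 (pLN) in GC cells, against 96.4 (PP) and 18.7 (pLN) in naive cells. The Actb ratio was 1.82 and 1.52 in GC cells, against 67.2 and 12.2 in naive cells. Bacterial and phage spike-in controls (9 probe sets) had a geometric mean signal of 4235 and 4183 in GC cells, against 17226 and 8306 in naive cells. The part of these differences in the values below was not tested. Positions of the probe sets along their transcripts were not used here.

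The first comparison was of GC with naive cells over both tissues. Of the 45 genes, 11 were higher and 12 lower in GC cells and 22 were not called (limma with tissue as a block, Benjamini-Hochberg adjusted p under 0.05 over all genes tested). Over all 9595 tested genes, 24.5% were called higher and 23.9% lower, so the members' shares lay near the background. Their median log2 fold was -0.06, against -0.05 over all tested genes, where a log2 fold is GC minus naive on a scale of log2(signal + 15.3). The members did not shift as a block: 17 were higher and 21 lower in GC cells in both tissues, and the roles differed in their counts. The share of all tested genes with the same direction in both tissues is not given here. In such bulk samples, fewer cells that make an RNA and less of it per cell cannot be told apart. All 23 calls were kept without the naive PP array (11 higher, 18 lower) and without the naive pLN array (15 higher, 20 lower). In these fits the spread comes from the 2 GC arrays alone, which lay close together. Without either GC array, where the spread comes from the naive arrays, 4 were called higher and 2 lower. When arrays were scaled to the spike-in controls, which raised the median log2 fold of all genes to 1.42, 16 members were called higher and 1 (Ndufs7) lower.

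**Figure D1:**
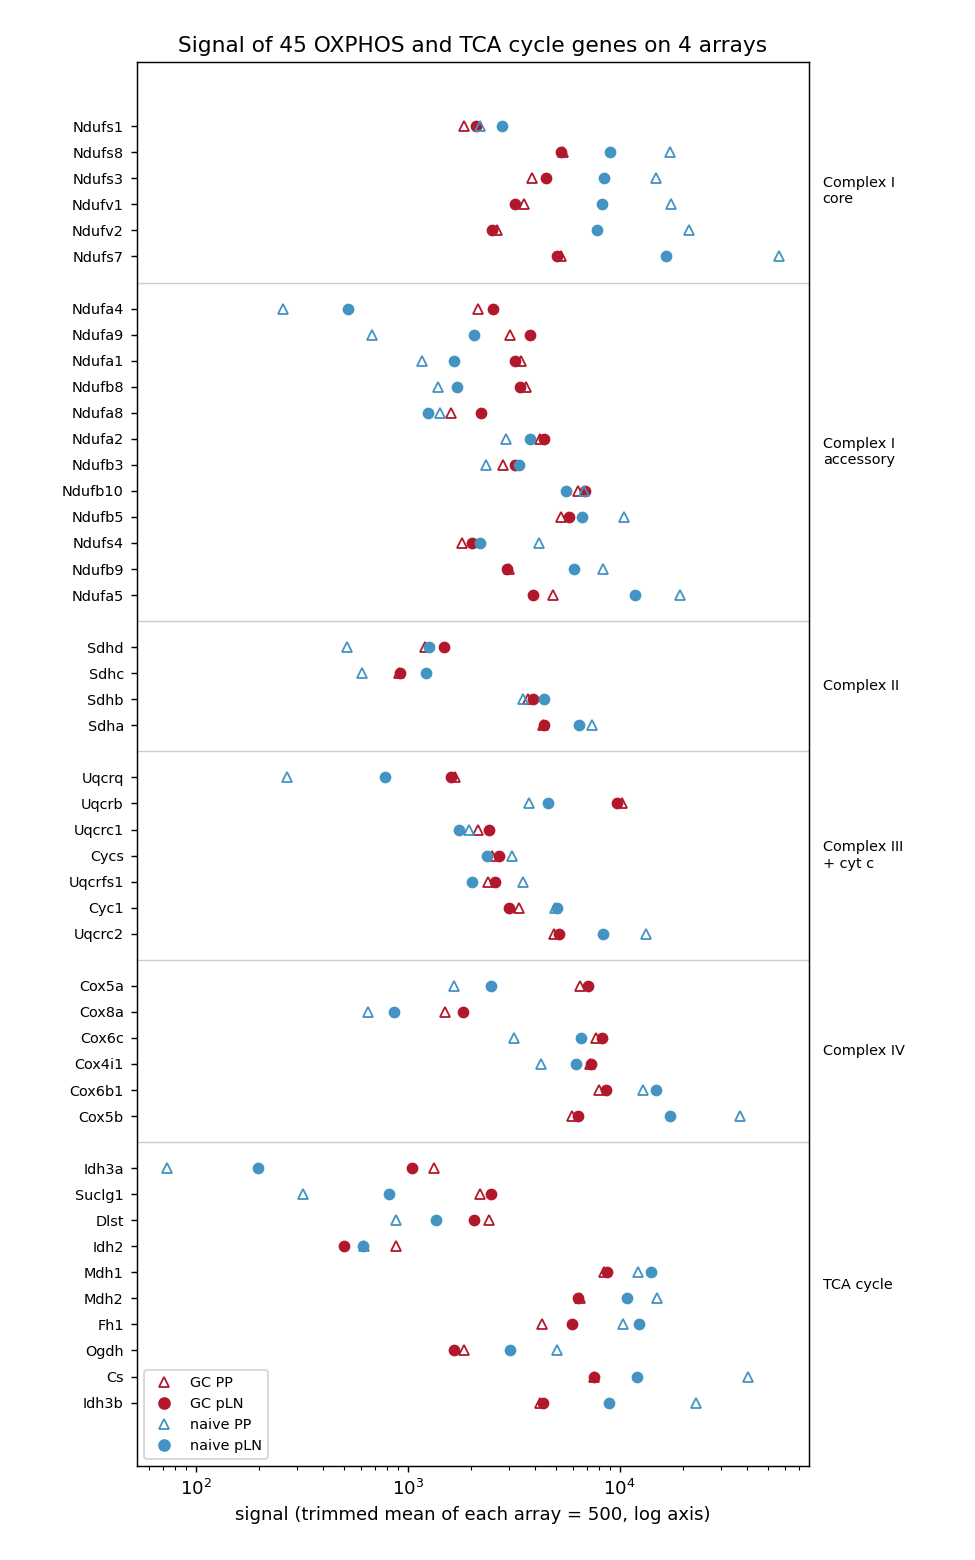
Signal of each of the 45 measured genes on the 4 arrays (log axis, each array scaled to a trimmed mean of 500), grouped by complex; red symbols are GC cells, blue symbols naive cells, open triangles PP and filled circles pLN. The 2 GC symbols of a gene lie close together, while the naive PP symbol often lies farther from the GC symbols than the naive pLN symbol does.

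The catalytic core of complex I gave the most one-sided counts of the 6 role groups. Of its 6 measured subunits, which carry the flavin and the iron-sulphur path to ubiquinone, 5 were lower in GC cells, none was called higher, and the group's median log2 fold was -1.62. Over all tested genes 23.9% were lower, a share that was 42.8% in the brightest eighth, where the median log2 fold was -0.95. Ndufs7, which holds the last iron-sulphur cluster before ubiquinone, had signals of 5304 (PP) and 5086 (pLN) in GC cells, against 56239 (PP) and 16593 (pLN) in naive cells. Both GC values lay below both naive values, by a log2 fold of -2.55 ± 0.53 (SE; limma adjusted p = 0.00179). Ndufv2, an iron-sulphur partner of the NADH-binding subunit, had 2628 (PP) and 2487 (pLN) in GC cells, against 21261 (PP) and 7793 (pLN) in naive cells. Ndufv1, the subunit that binds NADH and the flavin, had 3530 (PP) and 3203 (pLN) in GC cells, against 17472 (PP) and 8213 (pLN) in naive cells. The groups did not overlap in either gene, with log2 folds of -2.33 ± 0.45 (adjusted p = 0.00114) for Ndufv2 and -1.83 ± 0.43 (adjusted p = 0.0041) for Ndufv1. Ndufs3, a structural core subunit of the ubiquinone-reducing part, had 3862 (PP) and 4482 (pLN) in GC cells, against 14766 (PP) and 8451 (pLN) in naive cells, a log2 fold of -1.42 ± 0.44 (adjusted p = 0.0175). Ndufs8, another iron-sulphur subunit, had 5383 (PP) and 5269 (pLN) in GC cells, against 17197 (PP) and 9005 (pLN) in naive cells, a log2 fold of -1.22 ± 0.45 (adjusted p = 0.0373), although its probe sets pointed both ways. In both of these genes the naive PP array was the highest of the 4 and the 2 GC arrays were the lowest. Ndufs1, the largest core subunit, was the exception, with 1843 (PP) and 2093 (pLN) in GC cells, against 2190 (PP) and 2794 (pLN) in naive cells and a log2 fold of -0.33 ± 0.37 (adjusted p = 0.474), a difference that did not pass the test although the groups did not overlap. With spike-in scaling, only the call of Ndufs7 was kept (-1.05), Ndufv2 and Ndufv1 stayed below 0 at -0.82 and -0.33 without a call, Ndufs1, Ndufs3 and Ndufs8 had log2 folds of 1.16, 0.08 and 0.28 and the group's median was -0.12, while with the mean of all probe sets 4 were lower.

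The accessory subunits of complex I, which surround the core and are needed for its assembly and stability, were split. Of 12 measured, 4 were higher, 2 lower and 6 not called, with a median log2 fold of 0.24. Over all tested genes, 24.5% were higher and 23.9% lower. Ndufa4, found with complex I but now assigned to complex IV, had 2140 (PP) and 2532 (pLN) in GC cells, against 257 (PP) and 521 (pLN) in naive cells. It was about 6.36 times as bright in GC cells (ratio of geometric means), a log2 fold of 2.62 ± 0.39 (adjusted p = 0.000237). Ndufa9, at the joint of the matrix and membrane arms, had 3041 (PP) and 3762 (pLN) in GC cells, against 678 (PP) and 2050 (pLN) in naive cells, a log2 fold of 1.51 ± 0.41 (adjusted p = 0.0087). Ndufa1, a small membrane subunit, had 3438 (PP) and 3222 (pLN) in GC cells, against 1170 (PP) and 1650 (pLN) in naive cells, a log2 fold of 1.25 ± 0.38 (adjusted p = 0.0154). All 3 genes had both GC values above both naive values. Ndufb8, of the membrane arm, had 3598 (PP) and 3378 (pLN) in GC cells, against 1391 (PP) and 1703 (pLN) in naive cells, a log2 fold of 1.17 ± 0.37 (adjusted p = 0.02), which turned to -0.14 when its probe sets were averaged. Ndufa5, of the matrix arm, lay on the other side with 4850 (PP) and 3915 (pLN) in GC cells, against 19221 (PP) and 11803 (pLN) in naive cells and a log2 fold of -1.79 ± 0.43 (adjusted p = 0.00483). Ndufb9, also of the membrane arm, had 3005 (PP) and 2950 (pLN) in GC cells, against 8384 (PP) and 6090 (pLN) in naive cells, a log2 fold of -1.26 ± 0.40 (adjusted p = 0.0192), which turned to 0.24 with spike-in scaling. Ndufa5, Ndufb8 and Ndufb9 each had probe sets that pointed both ways. The 6 that were not called (Ndufa2, Ndufa8, Ndufb3, Ndufb5, Ndufb10, Ndufs4) had log2 folds between -0.66 and 0.50.

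Complex II, succinate dehydrogenase, is the only enzyme shared by the TCA cycle and the respiratory chain. None of its 4 subunits was called by its brightest probe set, with a median log2 fold of 0.02, but 2 were called higher when the probe sets of a gene were averaged. Sdhd, a membrane anchor, had 1212 (PP) and 1489 (pLN) in GC cells, against 520 (PP) and 1255 (pLN) in naive cells, a log2 fold of 0.72 ± 0.40 (adjusted p = 0.149). Sdha, the flavoprotein, had 4369 (PP) and 4409 (pLN) in GC cells, against 7401 (PP) and 6427 (pLN) in naive cells, a log2 fold of -0.65 ± 0.40 (adjusted p = 0.195). The GC and naive values overlapped in Sdhd, where naive pLN lay between the 2 GC arrays. They did not overlap in Sdha, but neither difference passed the test. Second probe sets of Sdhd, at 2202 (PP) and 4239 (pLN) in GC cells, against 145 (PP) and 339 (pLN) in naive cells, and of Sdhc were called higher, with log2 folds of 3.69 and 1.72. The naive PP value of this Sdhd probe set and the naive pLN value of the Sdhc one (68.5) lay below the detection level. Sdhb, the iron-sulphur subunit, and Sdhc, the other anchor, had log2 folds of -0.05 and 0.08.

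Complex III passes electrons to cytochrome c, and 2 of the 7 genes of this group were higher in GC cells while none was called lower (median -0.06). The shares over all tested genes were 24.5% higher and 23.9% lower. Uqcrq, a small subunit, had 1677 (PP) and 1609 (pLN) in GC cells, against 270 (PP) and 784 (pLN) in naive cells, a log2 fold of 1.79 ± 0.44 (adjusted p = 0.00492). Uqcrb, another small subunit, had 10211 (PP) and 9743 (pLN) in GC cells, against 3716 (PP) and 4572 (pLN) in naive cells, a log2 fold of 1.27 ± 0.42 (adjusted p = 0.0227). Both GC values exceeded both naive values in these 2 genes, but the probe set of Uqcrb brightest on the naive arrays had a log2 fold of -0.56. Uqcrc2, 1 of the 2 large core proteins, had 4898 (PP) and 5200 (pLN) in GC cells, against 13320 (PP) and 8303 (pLN) in naive cells. Its log2 fold of -1.06 ± 0.43 (adjusted p = 0.0591) did not pass the threshold, although in the fit of single probe sets both of its probe sets were called lower. The redox carriers were not called either: Cyc1 (cytochrome c1) had a log2 fold of -0.65, Uqcrfs1 (the Rieske iron-sulphur protein) -0.10 and Cycs (cytochrome c) -0.06, and the core protein Uqcrc1 had 0.30.

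Complex IV held members that went opposite ways. Of 6 measured nuclear-encoded subunits, 2 were higher, 1 lower and 3 not called, with a median log2 fold of 0.65. Among all tested genes 24.5% were higher and 23.9% lower. Cox5a had 6493 (PP) and 7054 (pLN) in GC cells, against 1653 (PP) and 2469 (pLN) in naive cells. The groups were well apart, by a log2 fold of 1.74 ± 0.39 (adjusted p = 0.00291). Cox5b, a zinc-binding subunit, had 5984 (PP) and 6369 (pLN) in GC cells, against 36884 (PP) and 17255 (pLN) in naive cells. Its groups were apart in the opposite direction, by a log2 fold of -2.03 ± 0.50 (adjusted p = 0.00512). Cox8a, the smallest subunit, had 1497 (PP) and 1821 (pLN) in GC cells, against 648 (PP) and 859 (pLN) in naive cells, a log2 fold of 1.13 ± 0.38 (adjusted p = 0.0243). Cox6c, Cox4i1 and Cox6b1 were not called, with log2 folds of 0.81, 0.50 and -0.73. Cox5a and Cox5b are subunits of the same enzyme that are present in equal number.

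Of the 10 genes of the TCA cycle and malate shuttle, 3 were higher, 4 lower and 3 not called (median -0.80). Over all tested genes, 24.5% were called higher and 23.9% lower. The group's median changed sign with averaged probe sets (0.39, with 3 higher and 1 lower) and with spike-in scaling (0.70, with 4 and 0). With quantile scaling it was -0.28, with 3 higher and 2 lower. Isocitrate dehydrogenase, which makes NADH from isocitrate, showed both directions among its subunits in these probe sets. Idh3a, its catalytic subunit, had 1327 (PP) and 1053 (pLN) in GC cells, against 73.3 (PP) and 197 (pLN) in naive cells, and the naive PP value lay below that array's detection level of 145. The log2 fold was 3.12 ± 0.47 (adjusted p = 0.000249), or 2.70 with that value raised to the level, while its other tested probe sets had log2 folds of 0.41 and 0.84 and were not called. Idh3b, its beta subunit, had 4192 (PP) and 4348 (pLN) in GC cells, against 22791 (PP) and 8925 (pLN) in naive cells, a log2 fold of -1.74 ± 0.47 (adjusted p = 0.0087). Its other tested probe set had a log2 fold of -0.44 and was not called. The call of Idh3b was lost under 5 of the 19 alternatives, among them spike-in scaling and averaged probe sets. Suclg1, the alpha subunit of succinyl-CoA ligase, had 2204 (PP) and 2476 (pLN) in GC cells, against 323 (PP) and 818 (pLN) in naive cells, a log2 fold of 2.15 ± 0.41 (adjusted p = 0.00104). Subunits of the oxoglutarate dehydrogenase complex also lay on both sides. Dlst, its transferase subunit, had 2413 (PP) and 2059 (pLN) in GC cells, against 882 (PP) and 1359 (pLN) in naive cells, a log2 fold of 1.02 ± 0.39 (adjusted p = 0.0431), a call that was lost under 8 of the 19 alternatives, among them the deposited scaling and averaged probe sets. Ogdh, its dehydrogenase subunit, had 1837 (PP) and 1660 (pLN) in GC cells, against 5072 (PP) and 3034 (pLN) in naive cells, a log2 fold of -1.16 ± 0.38 (adjusted p = 0.0228). The 2 subunits thus lay on opposite sides in each tissue. Cs, citrate synthase, which opens the cycle, had 7554 (PP) and 7540 (pLN) in GC cells, against 40116 (PP) and 12067 (pLN) in naive cells, a log2 fold of -1.54 ± 0.53 (adjusted p = 0.0284). Fh1, fumarase, had 4304 (PP) and 5976 (pLN) in GC cells, against 10359 (PP) and 12316 (pLN) in naive cells, a log2 fold of -1.15 ± 0.43 (adjusted p = 0.0386). In Cs the naive PP array stood far above the other 3, while in Fh1 the naive pLN array was the highest. The directions of Ogdh and Fh1 turned with spike-in scaling (0.34 and 0.35), and that of Cs, whose probe sets disagreed, when they were averaged (0.13). Mdh2, the mitochondrial malate dehydrogenase, Mdh1, its cytosolic partner in the malate shuttle, and Idh2, the NADP-dependent isocitrate dehydrogenase, were not called by their brightest probe sets, at -0.99, -0.62 and 0.10. The other tested probe set of Idh2, at 901 (PP) and 1153 (pLN) in GC cells, against 10.8 (PP, below the detection level) and 276 (pLN) in naive cells, was called higher (3.57), as were 2 of Mdh1 (1.89 and 2.05). The Mdh1 probe set at 2.05 lay below the level on both naive arrays, at 40.4 (PP) and 48.9 (pLN), so its fold is not exact.

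**Figure D2:**
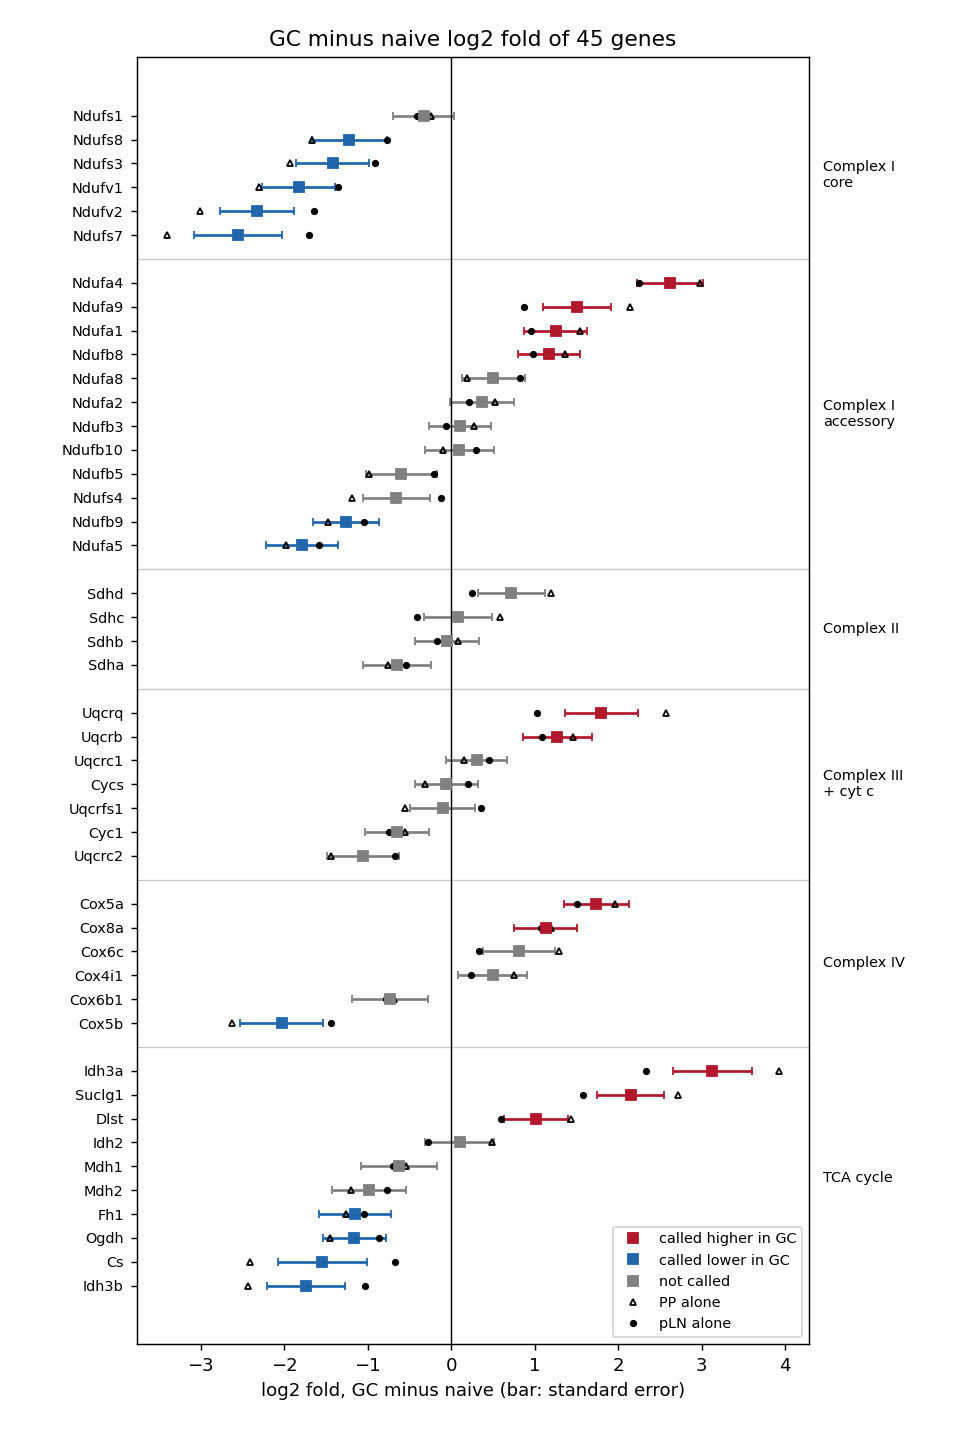
Log2 fold of GC minus naive cells for the 45 genes, by complex; squares are the estimate over both tissues with its standard error as the bar, coloured by the limma call, triangles the difference in PP alone and dots that in pLN alone. Complex I core genes sit left of 0, and the other groups hold genes on both sides; the triangles lie farther out than the dots for the called genes.

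Brightness moved with these folds. The members' median brightness (mean over 4 arrays) was at the 88.4th percentile of the tested genes, and 25 of the 45 fell in the brightest eighth. In that eighth, the median log2 fold of all genes was -0.95, with 3.33% of genes called higher and 42.8% lower. The 25 members there had a median of -0.99, with 2 higher (Cox5a, Uqcrb) and 11 lower. The dimmer 20 members gave 9 of the higher calls and 1 of the lower calls (Ogdh). In dimmer eighths the members lay above the median of all genes: 8, 4 and 6 members, in the order of falling brightness, had medians of -0.08, 0.76 and 1.46, against -0.34, -0.04 and 0.06 for all genes. The part of the trend with brightness in the members' folds was not tested. Under quantile and cyclic loess scaling, which act on such trends, 9 and 7 members were called lower, against 13 called higher under each.

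**Figure D3:**
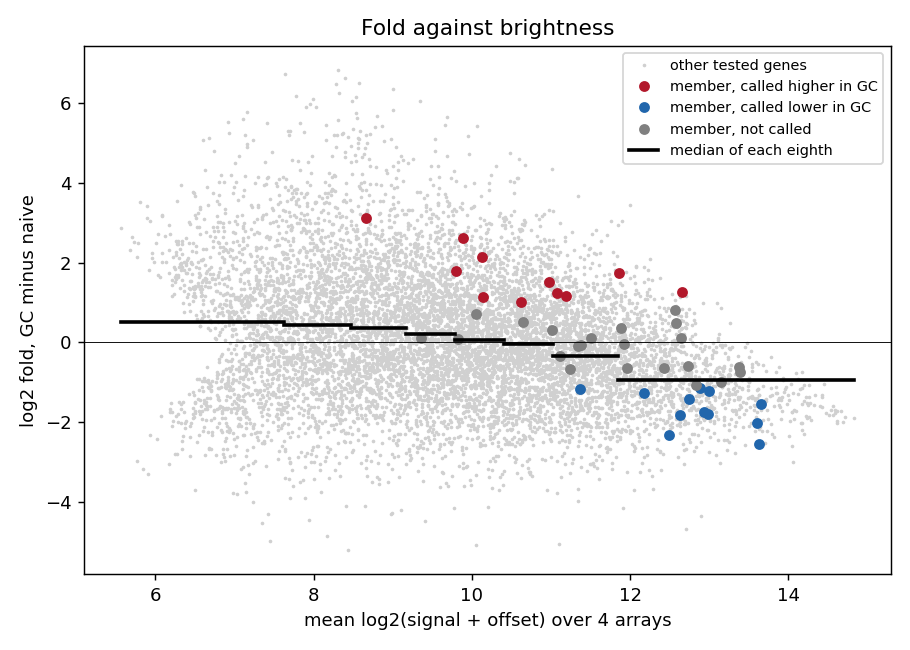
Log2 fold of GC minus naive cells against mean log2(signal + offset) over the 4 arrays; grey dots are other tested genes, coloured points the 45 members by call, and black lines the median fold in each eighth of brightness. The median line drops to -0.95 in the brightest eighth, which holds 25 members and 11 of the 12 called lower.

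Several members were measured by more than 1 probe set, and these often disagreed. In a fit with every probe set as its own row, 27 of the 96 tested member probe sets were called higher and 25 lower, where 33% and 19.2% of all 17245 tested probe sets were. Of 29 members with several tested probe sets, 14 had all of them on the same side of 0. These were 3 of 7 such members called higher, 5 of 10 called lower and 6 of 12 not called. In 5 genes (Cs, Ndufa5, Ndufb8, Ndufb9, Ndufs8), probe sets of the same gene were called in opposite directions. How often probe sets disagree among all genes is not given here, so these counts are not set against a background. For Ndufa5, the brightest probe set had a log2 fold of -1.79 while the other, with signals of 1632 (PP) and 1691 (pLN) in GC cells and 440 (PP) and 591 (pLN) in naive cells, had 1.67. The brightest Cs probe set had -1.54, another 0.00096, and the third 1.93, with signals of 3358 (PP) and 3727 (pLN) in GC cells against 630 (PP) and 1338 (pLN) in naive cells. The probe sets of these genes have no direction in common. The probe set folds of Ndufb8 ran between -1.45 and 1.17, those of Ndufb9 between -1.38 and 1.32 and those of the 6 probe sets of Ndufs8 between -1.34 and 1.16. Among members not called by their brightest probe set, 6 (Cycs, Idh2, Mdh1, Ndufs4, Sdhc, Sdhd) had another called higher and Uqcrc2 had probe sets called lower. For Cycs and Ndufs4 the higher one had 2.65 and 3.07, and the naive PP value of that Ndufs4 probe set (26.6) lay below the detection level.

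Other members had every tested probe set on the same side, though not always at a like fold. The 3 probe sets of Cox5a had log2 folds between 1.74 and 4.54 and all were called higher. All 5 tested probe sets of Cox5b, between -2.03 and -1.21, were called lower, as were the 3 of Ndufv2 (-2.33 to -1.53) and both of Ndufs7 (-2.55 and -1.26). The probe sets of a gene lay farther apart on the naive arrays. The median range among a member's probe sets was 1.56 (PP) and 1.29 (pLN) log2 units in GC cells, against 2.67 (PP) and 2.17 (pLN) in naive cells. Ndufa1, Ndufa4, Ndufa9 and Suclg1, all higher, and Ndufs3 and Fh1, both lower, had 1 tested probe set each, so no second probe set checks them. The brightest probe sets of Cox5b, Cox8a, Mdh1 and Ndufs8 are of a design (suffix x_at) that can also bind related sequences. So are the Cox5a probe set at 4.54 and further probe sets called higher of Mdh1 (1.89), Ndufs4, Ndufs8, Sdhc and Sdhd. Further probe sets called lower of Cox5b (-1.97 and -1.29), Ndufv2 (-1.53) and Ndufv1 (-1.13) are of this design as well.

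**Figure D4:**
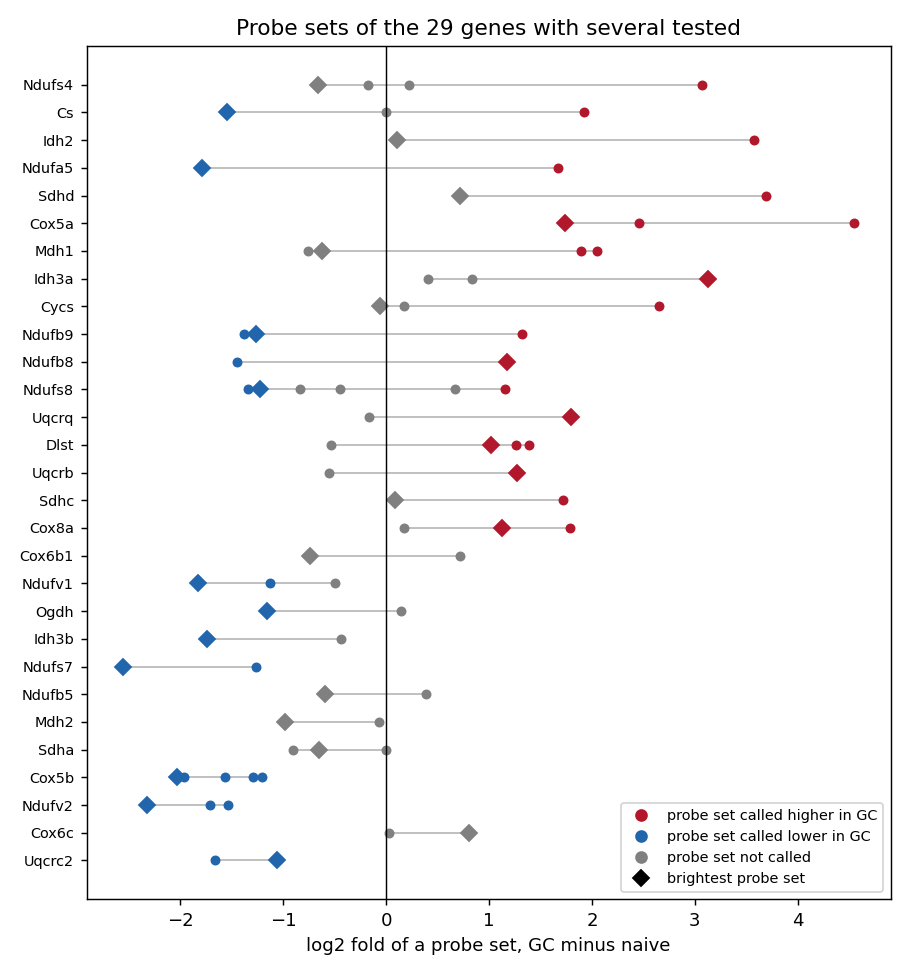
Log2 fold of GC minus naive cells for each tested probe set of the 29 members that have several, sorted by the width of their range; diamonds mark the brightest probe set and colours the call of each probe set. Cs, Ndufa5, Ndufb8, Ndufb9 and Ndufs8 have called probe sets on both sides of 0, while the probe sets of Cox5a, Cox5b, Ndufv2 and Ndufs7 stay on 1 side.

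Within single tissues, each comparison was of 1 array with 1 array and had no test. In PP, 13 members had GC signals at least 2-fold above the naive ones and 15 at least 2-fold below, where 31.3% and 28.4% of all genes above the level were. In pLN, 7 were at least 2-fold higher and 8 lower, where 20.4% and 24.6% of genes were. The 7 in pLN were Ndufa4, Uqcrb, Uqcrq, Cox5a, Cox8a, Idh3a and Suclg1, and all were among the 13 in PP. The 8 lower in pLN, Ndufs7, Ndufv1, Ndufv2, Ndufa5, Ndufb9, Cox5b, Idh3b and Fh1, were among the 15 in PP. The members' differences had an SD of 1.71 log2 units in PP and 1.00 in pLN, against 1.86 and 1.39 for all genes.

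The second comparison was of PP with pLN within a cell type, again with 1 array each and no test. In GC cells, none of the 45 members differed by 2-fold in either direction, where 3.72% of genes were at least 2-fold higher and 1.73% at least 2-fold lower in PP. The SD of the members' differences was 0.21 log2 units, against 0.55 for all genes. The members were brighter than most genes, and neither the shares nor the SDs were matched for brightness. By brightest probe sets, Idh2, at 879 in GC PP and 502 in GC pLN, had the highest difference of 0.79, followed by Idh3a (0.33) and Ndufa5 (0.31). Their other tested probe sets had the other sign, at -0.35 for Idh2, -0.30 and -0.16 for Idh3a and -0.05 for Ndufa5. Fh1, at 4304 in GC PP and 5976 in GC pLN, had the lowest of -0.47, close to Ndufa8 (-0.47) and Ndufa9 (-0.31). The 2 GC arrays thus lay close together for these genes, although no replicate array shows how close 2 arrays of the same source would lie.

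In naive cells, 6 members were at least 2-fold higher in PP (Ndufs7, Ndufv1, Ndufv2, Cox5b, Cs, Idh3b) and 6 at least 2-fold lower (Ndufa9, Sdhd, Uqcrq, Cox6c, Idh3a, Suclg1). Of all genes, 8.69% were higher and 15.8% lower by this measure. The naive PP signal of Idh3a was below the detection level, and with signals raised to the level 5 members were lower. By brightest probe sets, Ndufs7 had 56239 in naive PP and 16593 in naive pLN, a log2 difference of 1.76, next to 1.73 for Cs and 1.45 for Ndufv2. Their other probe sets had -0.11 for Ndufs7, 0.27 and -1.07 for Cs and 0.28 and 1.87 for Ndufv2. At the other end, Ndufa9 had 678 in naive PP and 2050 in naive pLN, a difference of -1.57, next to -1.49 for Uqcrq and -1.30 for Suclg1. The other tested probe set of Uqcrq had 0.57. The SD of the members' differences was 0.87 log2 units, against 0.91 for all genes. The naive PP array was also the one with the highest 3' over 5' ratios, and the part of RNA quality in these differences was not tested. These naive arrays enter the GC-naive folds as well, so the 2 sets of values are not independent.

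**Figure D5:**
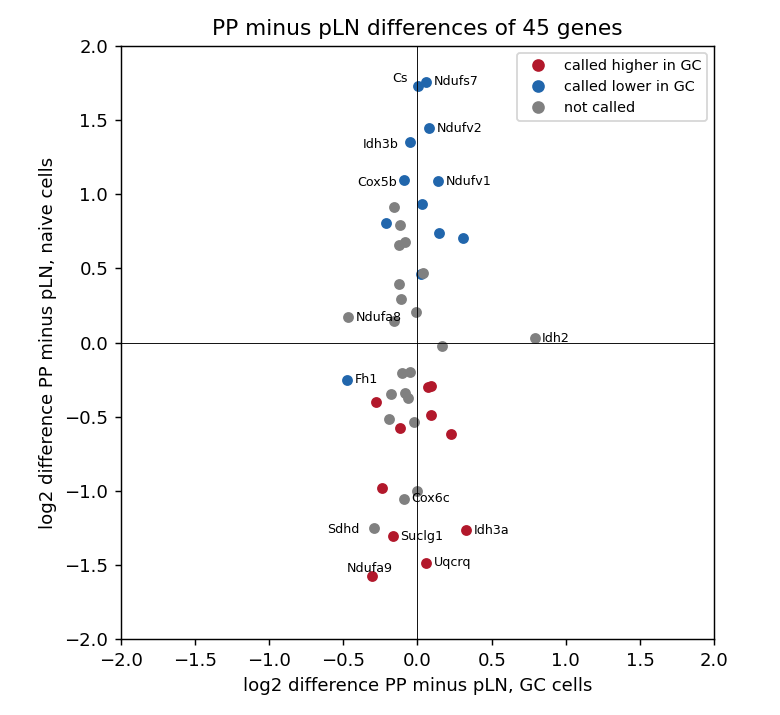
Log2 difference of PP minus pLN in GC cells (horizontal) and in naive cells (vertical) for the 45 genes, on equal scales, coloured by the GC-naive call, which uses the same naive arrays. Points spread between -1.57 and 1.76 along the naive axis and between -0.47 and 0.79 along the GC axis.

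Other genes of the pathway, listed by function but with earlier results of these data known, also went both ways. All 16 listed subunits or regulators of complex V were tested, of which 4 were higher and 4 lower (median 0.39). Atp5j, a stalk subunit, had 7183 (PP) and 7751 (pLN) in GC cells, against 1039 (PP) and 1228 (pLN) in naive cells, a log2 fold of 2.71 ± 0.37 (adjusted p = 0.000135). Atp5g2, which encodes a proton-carrying ring subunit also made from other gene copies, had a log2 fold of 2.32 ± 0.37 (adjusted p = 0.000362). The largest differences in the other direction were those of Atpif1, the natural inhibitor of the enzyme, with 3900 (PP) and 3631 (pLN) in GC cells, against 19635 (PP) and 11445 (pLN) in naive cells and a log2 fold of -1.99 ± 0.43 (adjusted p = 0.00258), and of Atp5h, a stalk subunit, at -1.70 ± 0.52 (adjusted p = 0.0161). The counts of 4 higher and 4 lower of 16 lie near the 24.5% and 23.9% of all tested genes. Of 15 tested further complex I subunits, 1 was higher (Ndufab1, the mitochondrial acyl carrier protein, 1.81) and 2 lower (Ndufa10, -2.01, and Ndufa6, -1.48). Of 7 further subunits of complexes III and IV, 3 were higher, Uqcr11 (2.55), Cox6a1 (1.82) and Uqcr10 (1.30), and none was called lower. The 13 mitochondrially encoded genes were not analysed here.

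Assembly factors, which build the complexes, were called higher in 8 of 30 cases and lower in 2 (median 0.12). The shares over all tested genes were 24.5% higher and 23.9% lower. Timmdc1, needed for complex I assembly, had 809 (PP) and 820 (pLN) in GC cells, against 191 (PP) and 126 (pLN) in naive cells, a log2 fold of 2.28 ± 0.43 (adjusted p = 0.00105). Sco1, which delivers copper to complex IV, had a log2 fold of 2.08, or 1.35 with its naive PP signal raised to the detection level, and Ndufaf1, another complex I factor, had 1.78, or 1.37 likewise. Lyrm7, a chaperone of the Rieske protein, was below the level on both GC arrays, so that its fold is known only as a bound, of -1.05. Among 15 other enzymes of the cycle and its entry points, Idh1, the cytosolic isocitrate dehydrogenase, was higher (2.37, or 2.18 with naive PP at the level), as was Got2 (1.11), and Idh3g, the gamma subunit of the NAD-dependent enzyme, was lower (-1.93). By their brightest probe sets, Idh3g and Idh3b were thus both lower while Idh3a, their catalytic partner, was higher. The other tested probe sets of Idh3a and Idh3b were not called.

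Of 5 tested pyruvate dehydrogenase kinases and phosphatases, which gate pyruvate entry into the cycle, 1 was higher and 2 lower. Pdk1, a kinase that inhibits the entry step, had 598 (PP) and 581 (pLN) in GC cells, against 1718 (PP) and 2227 (pLN) in naive cells, a log2 fold of -1.70 ± 0.38 (adjusted p = 0.0029). Pdk2 was below the level on both GC arrays, with a bound of -1.32, and Pdk3 was higher, at 1.42. Genes that maintain and transcribe mitochondrial DNA or regulate respiratory genes were higher in 3 and lower in 4 of 13 tested (median -0.60). For both lists, the shares over all tested genes were 24.5% higher and 23.9% lower. Gabpa, which binds the ETS motif shown above, had 1157 (PP) and 1272 (pLN) in GC cells, against 170 (PP) and 362 (pLN) in naive cells, a log2 fold of 2.22 ± 0.42 (adjusted p = 0.00108), and Esrra, the ERR receptor, had 1.84. Polrmt, the mitochondrial RNA polymerase, had 1627 (PP) and 1096 (pLN) in GC cells, against 5020 (PP) and 5846 (pLN) in naive cells, a log2 fold of -2.01 ± 0.39 (adjusted p = 0.00118), and Tfb1m, a mitochondrial rRNA methyltransferase, had -1.72. Of 6 muscle or testis isoforms, 2 were tested, and Cox6a2 was lower, with a bound of -1.65 because both GC signals lay below the level.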

How the data were processed

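Per the submitters' processing notes the signals were made with GCOS; how these were computed and scaled is not given in the sources used here. All deposited intensities are linear, with a median of 1 on every array. They were multiplied by 68.0 (GC PP), 56.4 (GC pLN), 63.3 (naive PP) and 50.0 (naive pLN), which sets each 2% trimmed mean to 500, and tested as log2(signal + 15.3). The offset was the median of 91 probe sets of 50 genes of other tissues, and their 90th percentile on an array was its detection level (119, 65.1, 145 and 78.4 in the same order). Each gene was represented by its brightest of the 34958 probe sets that the platform annotation pairs with 1 symbol; 932 pair with several and 9211 were not listed. The Entrez identifiers of 34754 matched RefSeq, which changed 0 symbols. Genes that passed the level on both GC or both naive arrays entered limma 3.58.1 (R 4.3.3; cell type and tissue, intensity trend, 1 residual degree of freedom, prior 12.4), which was tested on simulated data. The simulation gave a gene the same spread on every array, so it does not cover the difference in RNA quality between the cell types. P-values measure only the disagreement between 2 tissues, not that between mice. The members, lists and tests were chosen with earlier results of these data known. Named were the called members, the extremes of each role group and of the tissue differences, members with opposed probe sets and up to 4 called genes of each further list. Alternatives covered scaling, offset, filter, probe set, block, trend, a fold minimum and leaving out each array.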

Additional observations from a re-analysis of the deposited data

Results flagged for a closer look

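In 7 of the 45 genes the GC minus naive log2 difference had opposite signs in PP and pLN. The like share over all tested genes is not given here. Each value compares 1 array with 1 array, so the difference between tissues was not tested, and none of the 7 genes was called over both tissues. The PP difference minus the pLN difference was 0.99 for Sdhc, 0.76 for Idh2, 0.33 for Ndufb3 and 0.25 for Sdhb, which were higher in GC cells in PP and lower in pLN. It was -0.91 for Uqcrfs1, -0.52 for Cycs and -0.40 for Ndufb10, which were lower in GC cells in PP and higher in pLN. These signs are those of each gene's brightest probe set. The other tested probe sets of Sdhc (1.18 in PP, 2.25 in pLN) and Idh2 (5.13 and 2.01) were higher in GC cells in both tissues. So were those of Cycs (3.33 and 1.96 for 1, 0.30 and 0.05 for another). Sdhc had 913 in GC cells against 606 in naive cells in PP, and 916 in GC cells against 1225 in naive cells in pLN. For Uqcrfs1 the signals were 2382 in GC cells and 3511 in naive cells in PP, and 2583 in GC cells and 2017 in naive cells in pLN. Groups of 1 array leave no outlier to be sought within a group.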

How the results depend on the processing

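Of 853 recomputed values for single members under 19 alternatives, 735 stayed called or not called as reported, 68 lost and 40 gained a call, and 10 turned in sign where the reported or the recomputed value was called. In all, 51 values had the other sign, 41 of them not called in either fit, in 24 members of which 8 were called; 17 of the 51 came with spike-in scaling. Ndufa4, Suclg1 and Ndufs7 kept their calls under all 19, and these with Ndufa1 and Cox5a under all that used the 4 arrays. The 10 that turned were, with spike-in scaling, Ndufs3 (0.082), Ndufs8 (0.28), Ndufb9 (0.24), Ogdh (0.34), Fh1 (0.35) and Mdh1 (0.88), with averaged probe sets Ndufb8 (-0.14) and Cs (0.13), with the probe set brightest on naive arrays Uqcrb (-0.56) and with that brightest on GC arrays, an alternative chosen after seeing the data, Cycs (2.65). The members' median fold was -0.20 with the deposited scaling, 0.034 with quantile, 0.17 with loess, 1.44 with spike-in scaling and 0.10 with averaged probe sets. Called lower were 7 with loess, 1 with spike-ins and 7 with averaged probe sets. Leaving out 1 array in turn gave 4 to 15 called higher, 2 to 20 called lower and medians between -0.20 and -0.043. In PP, the median difference of GC and naive cells was -0.35 (deposited), -0.0806 (quantile), 0.078 (loess), 1.76 (spike-ins), 0.15 (averaged), -0.32 (brightest on naive) and -0.10 (brightest on GC); 8, 9, 1 and 7 genes were lower with quantile, loess, spike-ins and averaging, and 30 higher with spike-ins. In pLN it was -0.35, 0.054, 0.21, 0.81 and 0.24 for the first 5 of these and 0.15 for the last; 4, 1, 0, 4 and 5 genes were lower with quantile, loess, spike-ins, averaging and brightest on GC, and 4 (deposited) or 20 (spike-ins) higher. PP minus pLN in GC cells had a median of -0.33 (deposited) and -0.006995 (loess). In naive cells it was -0.36 (deposited), -0.087 (quantile), -0.066 (loess), -1.07 (spike-ins), -0.22 (averaged), 0.028 (brightest on naive) and -0.20 (brightest on GC), with 0 (quantile and spike-ins) or 3 (averaged) genes higher and 23 lower with spike-ins. The causes were not tested. Among all genes, 50.5% of the calls were higher in the reported fit, 40.8% with quantile, 97.4% with spike-ins and 62.7% with averaged probe sets. Tissue already pairs the arrays in the reported fit, and without that block 9 members were higher and 13 lower.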
